A study of Mus musculus with 2 samples.

Results

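The genes described here are 33 components of the pre-mRNA splicing machinery: the SF3B and SF3A subunits of the U2 small nuclear ribonucleoprotein (snRNP), the branch point and 3′ splice site factors SF1 and U2AF, the serine/arginine-rich (SR) and TRA2 proteins, and proteins of the U1 and U5 particles with associated helicases. They were taken by name, by their roles and not by a threshold on their values, although earlier results of these data were known, from the 55487 gene IDs of a count table of mouse RNA sequencing, and all 33 were found. The samples are 2 cultures of lineage-negative bone marrow cells (femora, tibiae and pelvis) of C57BL/6 mice, which are enriched for haematopoietic stem and progenitor cells. EVI1 is a zinc finger transcription factor of the Mecom locus. One culture was transduced with pMYs-IG, a retroviral plasmid, that encoded 3xHA-tagged EVI1 in its wild-type form (EVI1-WT), and the other with one that encoded EVI1+18, a form produced by aberrant splicing. Both were sorted for the green fluorescence that the vector confers, plated at 10000 cells in methylcellulose (MethoCult M3434) and grown for about 3 weeks before RNA extraction. Each vector is represented by 1 library, expression is driven from a retrovirus, control cultures lacking such a vector were not analysed here, and the labels do not say how many mice or colonies were pooled. No difference below therefore has a replicate check, no test was run, and every interval covers counting error alone.

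Splicing starts when U1 snRNP binds the 5′ splice site and SF1 and U2AF bind the branch point and the 3′ splice site, after which U2 snRNP replaces SF1 at the branch point with the help of SF3A and SF3B. SR proteins bind exonic enhancers and recruit these particles, and the U4/U6.U5 tri-snRNP then brings in the factors of the catalytic core. SF3B1, SRSF2, U2AF1 and LUC7L2 are recurrently mutated in myeloid neoplasms, and mutant SF3B1 is known for the use of cryptic 3′ splice sites. In the cultures studied here the aberrant EVI1 form was supplied by the vector, so the splicing factors were not manipulated, and counts per gene show how much RNA of each factor was present, not how any transcript was spliced.

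Many splicing factors limit their own level through exons that carry an early stop codon and send the transcript to nonsense-mediated decay. In GENCODE release M21 (GRCm38), 19 of the 33 genes have a transcript annotated for such decay, among them 11 of the 12 SR and TRA2 genes. In 10 genes the stop codon lies in an exon that overlaps no exon of an annotated protein-coding transcript, and these exons number 13 (overlapping versions counted separately). The exons of 7 of the 10 genes are shown because the counts of these genes add the coding and the decay-bound transcripts: those of the Srsf3 and Srsf7 pair, the Tra2 pair, Srsf9, Snrnp70 and Sf3b1. Those of U2af1, Srsf4 and Srsf11 are not printed. Each runs 5′ to 3′ from the start of the exon to its stop codon, which is in capitals.
Srsf3, chr17:29039454-29039909, plus strand: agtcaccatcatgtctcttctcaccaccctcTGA
Srsf7, chr17:80204622-80205081, minus strand: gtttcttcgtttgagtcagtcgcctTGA
Srsf9, chr5:115328347-115328704, plus strand: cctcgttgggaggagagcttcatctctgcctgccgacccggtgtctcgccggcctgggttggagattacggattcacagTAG
Tra2a, chr6:49252803-49253108, minus strand: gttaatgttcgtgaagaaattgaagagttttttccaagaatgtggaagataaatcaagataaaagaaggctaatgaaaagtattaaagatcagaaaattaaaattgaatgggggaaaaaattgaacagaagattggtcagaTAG
Tra2b, chr16:22258986-22259261, minus strand: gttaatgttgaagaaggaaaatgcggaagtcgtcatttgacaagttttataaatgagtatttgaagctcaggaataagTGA
Snrnp70, chr7:45383125-45383184, minus strand: ccaccacgcagctggcttgcagcTGA
Sf3b1, chr1:55014869-55014924, minus strand: gcttctattctgctgctTGA
The Srsf3 exon is 456 bases long and its stop codon ends at base 34, and that of the 460-base Srsf7 exon ends at base 28. The Tra2a and Tra2b exons begin with the same 9 bases, and both contain GAAGAA, the core of the element that TRA2 proteins bind. The Srsf7 exon contains GAAGAA too, past the printed stop codon. The coordinates give the whole exon, of which the printed bases are the part up to the stop.

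The EVI1-WT library held 20480447 counts and the EVI1+18 library 20981903. Levels are given as scaled CPM, which is counts per 1000000 after scaling of the libraries by the trimmed mean of M values (TMM), and ratios are EVI1+18 over EVI1-WT with a 95% exact counting interval. A filter of 1 scaled CPM in either library left 13183 genes, of which 5.05% were higher and 5.1% lower in EVI1+18 by more than 2-fold over their whole interval. At 10 scaled CPM these shares were 3.48% and 4.06%. Mecom itself had 3612 and 4481 counts, a ratio of 1.16 (1.11 to 1.21), and the counts do not separate vector from endogenous transcripts. Summed over lists of marker genes, scaled CPM went from 1455 in EVI1-WT to 13140 in EVI1+18 for 14 erythroid genes found, from 581 to 1559 for 12 megakaryocyte and platelet genes, from 5618 to 841 for 13 mast cell and basophil genes, from 3745 to 1882 for 14 neutrophil genes, from 855 to 173 for 8 eosinophil genes and from 2068 to 3051 for 13 monocyte and macrophage genes. The last sum rests on Lyz2, without which it went from 1101 to 654, whereas the other 5 lists kept their direction without their most abundant gene. Defining markers at 0 counts included Gp1bb and Tubb1 in EVI1-WT, Ear1 in EVI1+18, Tpsab1 and C1qa in both and C1qc in EVI1-WT. The 10 lymphoid genes summed to 36.5 and 26.01 scaled CPM, with Cd4, Cd8a, Ms4a1 and Pax5 among those at 0 counts in both libraries. By the 2-fold rule, 12 of 14 erythroid and 8 of 10 megakaryocyte genes above the filter were higher in EVI1+18 and 0 lower. The mast cell and basophil list had 2 higher and 7 lower of 11, the neutrophil list 0 and 6 of 13, the eosinophil list 1 and 4 of 5, and the monocyte and macrophage list 4 and 2 of 10. In bulk RNA, fewer cells of a type and less RNA per cell cannot be told apart. The part of these cell type genes in the splicing factor ratios was not tested.

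All 33 splicing factors were expressed well above the filter of 1 scaled CPM, and their differences were small. Together they took 130088 counts in EVI1-WT, or 0.635% of the library, and 154033 counts in EVI1+18, or 0.734%. Their median level was 192 scaled CPM with EVI1-WT and 215 with EVI1+18, against 25.9 for all genes above the filter in each library. The lowest was Srsf4, at 23.1 and 21.7 scaled CPM, and the highest were Prpf8 in EVI1-WT (449.5) and Srsf5 in EVI1+18 (482). A value of 0 counts would have allowed at most 0.150 and 0.140 scaled CPM, far below any of them.

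**Figure D1:**
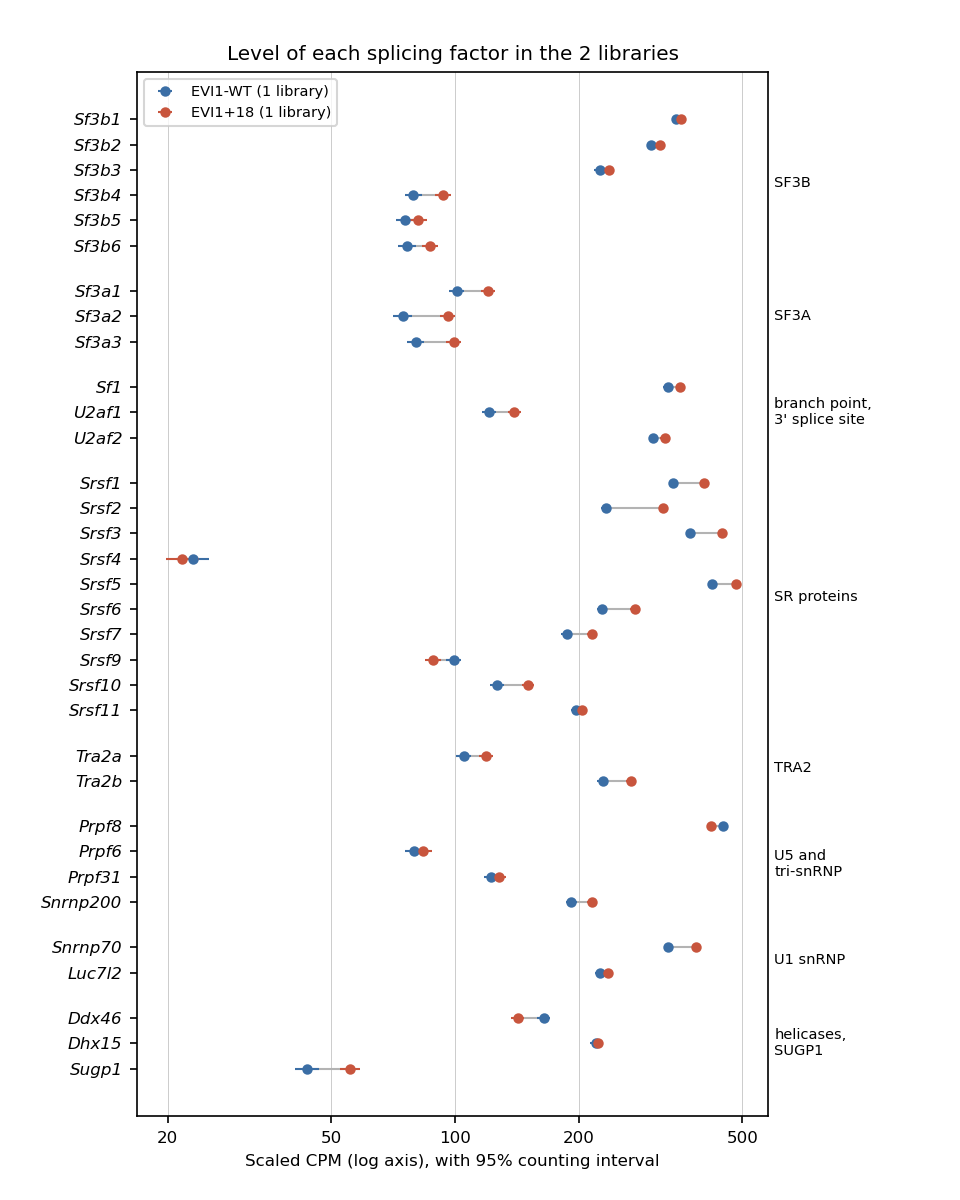
Scaled CPM (log axis) of each of the 33 splicing factors in the EVI1-WT library (blue) and the EVI1+18 library (red), with 95% exact Poisson counting intervals and 1 library per vector, grouped by family. Srsf2 shows the widest gap upwards, from 233 to 321, and Prpf8, Ddx46, Srsf9 and Srsf4 are the 4 genes whose red point lies to the left of the blue one.

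None of the 33 genes (0 higher, 0 lower) was 2-fold apart, and 1, Srsf2, was higher in EVI1+18 by more than 25% over its whole interval, where 13.4% of all genes were higher in EVI1+18 and 15.9% higher in EVI1-WT by that rule. Among genes of at least 10 scaled CPM, which all 33 are, the shares were 12.0% and 15.9%. Sf3a2 came nearest outside it, with a lower bound of 1.20 against 1.33 for Srsf2. Beyond equality, 24 of the 33 were higher in EVI1+18 and 3 were lower, and for 6 the interval included 1. Over all genes above the filter, 33.4% were higher and 32.8% lower than equality. At 10 scaled CPM the shares were 36.2% in each direction. The median log2 ratio of the 33 was 0.18, with quartiles of 0.06 and 0.25, and that of all genes was 0.01, with quartiles of -0.32 and 0.30. The splicing factors were spread less widely than genes in general, which include many of lower count, and 29 of them lay above 0, compared with 6712 of the 13183.

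**Figure D2:**
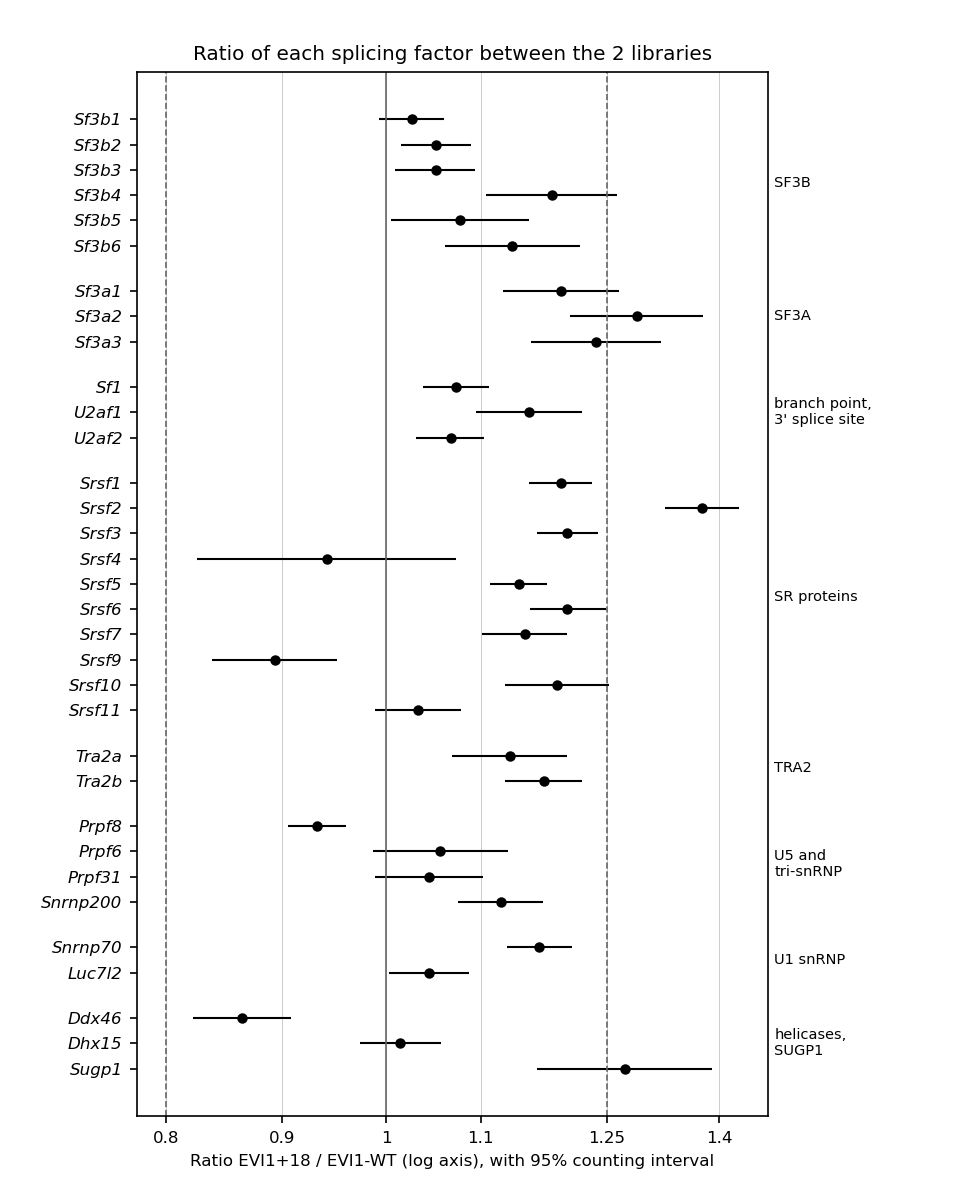
Ratio of EVI1+18 over EVI1-WT in scaled CPM (log axis) for each splicing factor, with 95% exact counting intervals, where the solid line marks equality and the dashed lines a library 25% above the other. The interval of Srsf2 (1.33 to 1.43) is the one that lies wholly beyond the right dashed line, and those of Srsf9, Prpf8 and Ddx46 lie wholly below 1.

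**Figure D3:**
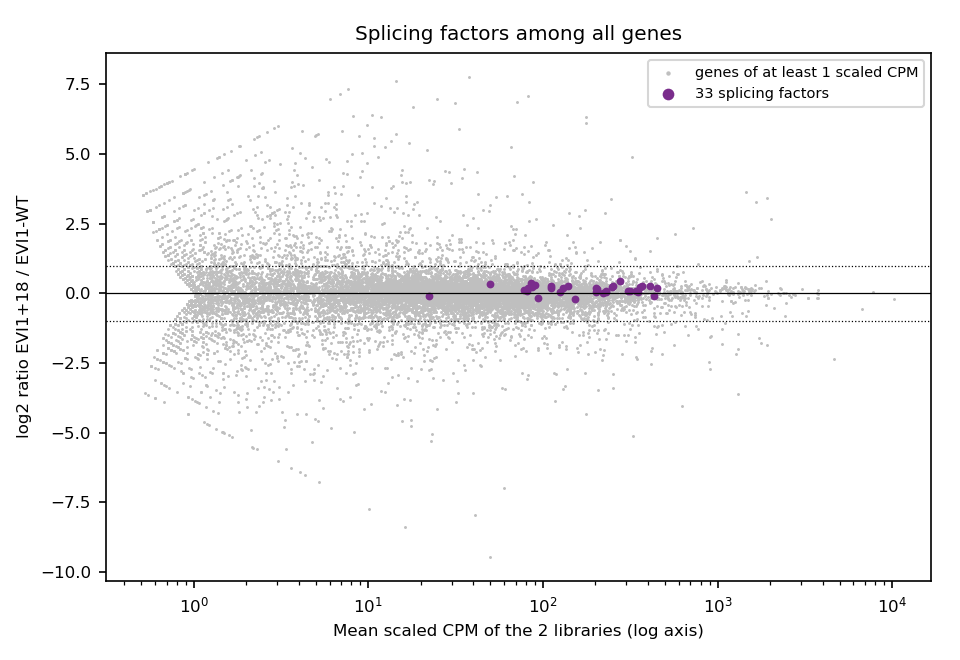
Log2 ratio of EVI1+18 over EVI1-WT against the mean scaled CPM of the 2 libraries (log axis) for the 13183 genes above the filter (grey) and the 33 splicing factors (purple), with dotted lines at 2-fold. The splicing factors lie between -0.21 and 0.46, inside the dotted lines.

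Within the SF3B complex, which clamps the branch point helix, Sf3b1, Sf3b2 and Sf3b3, the large subunits, were nearly level between the libraries. Sf3b4 and Sf3b6 stood somewhat higher in EVI1+18, and Sf3b5 lay between. The intervals of Sf3b5 and Sf3b6 overlapped those of Sf3b2 and Sf3b3. Phf5a, a further small subunit that was placed with the other U2 factors and is named here after its values were seen, had 1332 and 1373 counts and a ratio of 0.962 (0.892 to 1.04). Sf3b1 (ENSMUSG00000025982, GRCm38 chr1:54985169-55027481, minus strand), the scaffold that contacts the branch point, had 6920 counts with EVI1-WT and 7606 with EVI1+18, or 346 and 355 scaled CPM. Its ratio was 1.03 (0.993 to 1.06), and this interval held equality. Scaled by library totals in place of TMM the ratio was 1.07 (1.04 to 1.11), and the interval excluded equality under 3 of 4 other scalings, so whether Sf3b1 stood apart from equality rests on the scaling. Its partner Sf3b3, a large propeller protein, had 225 and 236 scaled CPM, with a ratio of 1.05 (1.01 to 1.09). Sf3b2, which binds near the branch point, had 299.9 and 315 scaled CPM and also a ratio of 1.05 (1.02 to 1.09). These 3 intervals overlapped each other.

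The small RNA-binding subunit Sf3b4 had 1586 and 2008 counts, or 79.2 and 93.6 scaled CPM, a ratio of 1.18 (1.11 to 1.26). Of its 50-base words, 45.3% also occur in transcripts of other genes, chiefly Gm7935, which had 139 and 178 counts, so the division of reads between the pair is uncertain. Sf3b6, the subunit that touches the branch point adenosine, stood at 76.5 and 86.8 scaled CPM, with a ratio of 1.14 (1.06 to 1.22), and shared no such word with any other gene. Sf3b5, the smallest subunit, had 75.5 and 81.3 scaled CPM and a ratio of 1.08 (1.005 to 1.16). Counted against Sf3b1 in the same library, which removes library scaling, Sf3b4 was 1.15-fold higher in EVI1+18 (1.07 to 1.24). The pairs of genes compared within a library, here and below, were chosen after the counts were seen.

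The SF3A complex, which bridges SF3B and the core of U2 snRNP, was higher in EVI1+18 in all 3 subunits, with a median log2 ratio of 0.31 against 0.09 for SF3B. Sf3a2 had 1492 counts with EVI1-WT and 2059 with EVI1+18, or 74.5 and 96 scaled CPM, and its ratio of 1.29 (1.20 to 1.38) was the second highest of the 33. Sf3a3 had 1606 and 2127 counts, with a ratio of 1.24 (1.16 to 1.32). Sf3a1, whose product also contacts U1 snRNP, had 2020 and 2581 counts, with a ratio of 1.19 (1.13 to 1.27). Against Sf3b1 in the same library, Sf3a2 was 1.26-fold (1.17 to 1.35) and Sf3a3 1.21-fold higher in EVI1+18 (1.12 to 1.30). The gene Plekhj1 overlaps Sf3a2 on the opposite strand over 16.1% of its exonic bases and had 1043 and 1180 counts, and without a known strand setting reads in that stretch cannot be assigned to one of them.

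SF1 and the U2AF heterodimer, which recognise the branch point, the polypyrimidine tract and the terminal AG, were all slightly higher in EVI1+18. U2af1, the small subunit that reads the AG, had 2419 and 2994 counts, or 121 and 139.5 scaled CPM, a ratio of 1.16 (1.10 to 1.22). U2af2, the large subunit that binds the polypyrimidine tract, had 6076 and 6943 counts and a ratio of 1.07 (1.03 to 1.10). Sf1 had 6585 and 7568 counts and likewise a ratio of 1.07 (1.04 to 1.11). The count of U2af2 over that of U2af1 was 2.51 in EVI1-WT and 2.32 in EVI1+18, a difference by a factor of 0.923 (0.866 to 0.984). U2af1 shares 21.7% of its 50-base words with other genes, each of which had 56 counts or fewer. U2af2 shares 14.7%, chiefly with Gm5846 at 129 and 104 counts.

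Of the 10 SR proteins, 7 were higher and 1 lower in EVI1+18 beyond equality, and the median log2 ratio was 0.22. By that rule 33.4% of all genes above the filter were higher and 32.8% lower, and at 10 scaled CPM 36.2% each. Genes of high count, as most of these are, pass equality at smaller differences. Srsf2 (ENSMUSG00000034120, chr11:116849901-116853094, minus strand), an activator of exon inclusion through exonic enhancers, had 4665 counts with EVI1-WT and 6879 with EVI1+18, or 233 and 321 scaled CPM. Its ratio of 1.38 (1.33 to 1.43) was the highest of the 33, and 82.7% of all genes above the filter had a lower one. Exons of Mettl23 and Mfsd11 overlap those of Srsf2 on the opposite strand over 15.6% and 9.74% of its exonic bases. Mettl23 had 219 and 311 counts and Mfsd11 567 and 464, far lower than those of Srsf2. Without a known strand setting, however, reads in the shared stretches cannot be assigned to one of these genes. The counts of the partners therefore do not limit the effect of the overlap on Srsf2. Srsf2 also shares 20.7% of its 50-base words with other genes.

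Srsf1, the founding member of the family, had 6788 and 8673 counts and a ratio of 1.19 (1.16 to 1.23). Srsf3, the smallest SR protein, had 7452 and 9592 counts, or 372 and 447 scaled CPM, and a ratio of 1.20 (1.17 to 1.24). Srsf6 had 4565 and 5876 counts and also a ratio of 1.20 (1.16 to 1.249), and Srsf10, which acts as a repressor when dephosphorylated, 2533 and 3223 counts and 1.19 (1.13 to 1.252). These 4 genes had overlapping intervals. Srsf7, a close relative of Srsf3, had 3744 and 4612 counts and a ratio of 1.15 (1.10 to 1.20), and Srsf5 8449 and 10342 counts and 1.14 (1.11 to 1.18).

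The remaining SR genes were lower or held equality in their intervals under TMM. Srsf9 (chr5:115327177-115333080, plus strand), a short relative of Srsf1, had 1986 counts with EVI1-WT and 1900 with EVI1+18, or 99.2 and 88.6 scaled CPM. It was 1.12-fold lower in EVI1+18 (1.05 to 1.19) and shared no 50-base word with another gene. Srsf4 had 462 and 466 counts, a ratio of 0.942 whose interval of 0.826 to 1.07 held equality. Srsf11, which works beside U2AF, had 3952 and 4369 counts and a ratio of 1.03 (0.988 to 1.08), but this interval excluded equality under 3 of 4 other scalings, with 1.08 (1.03 to 1.13) under library totals. Compared within each library, the count of Srsf1 over its relative Srsf9 went from 3.42 in EVI1-WT to 4.57 in EVI1+18, a 1.34-fold difference (1.245 to 1.43), and that of Srsf2 over Srsf9 from 2.35 to 3.62, a 1.54-fold difference (1.43 to 1.66). These values do not depend on library scaling, and the pairs were chosen after the counts were seen.

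TRA2 proteins are relatives of SR proteins with an arginine/serine domain at each end. Tra2b had 4574 and 5746 counts, or 228 and 268 scaled CPM, with a ratio of 1.17 (1.13 to 1.22). Tra2a had 2102 and 2551 counts, or 105 and 119 scaled CPM, with a ratio of 1.13 (1.07 to 1.20). Their balance was alike in the 2 libraries, with 2.18 counts of Tra2b for each of Tra2a in EVI1-WT and 2.25 in EVI1+18, a difference by a factor of 1.04 (0.966 to 1.11). The 10 genes with a decay exon of this kind, of which 7 are shown above, had ratios from 0.893 to 1.20 with a median of 1.14, and the other 23 had ratios from 0.864 to 1.38 with a median of 1.12. The counts do not say which share of either group's RNA contained such an exon.

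Proteins of the U5 particle and tri-snRNP were close to level. Prpf8 (chr11:75486816-75509449, plus strand), the core protein of the catalytic centre, had 9003 counts with EVI1-WT and 8993 with EVI1+18, or 449.5 and 419 scaled CPM, and was 1.07-fold lower in EVI1+18 (1.04 to 1.10). Under library totals its ratio was 0.975, with an interval of 0.947 to 1.004 that held equality. Snrnp200, the helicase that unwinds U4 from U6, had 3841 and 4620 counts and stood higher, with a ratio of 1.12 (1.08 to 1.17). Relative to Prpf8 in the same library it was 1.20-fold higher in EVI1+18 (1.14 to 1.27). The bridging factors Prpf6 and Prpf31 had ratios of 1.06 (0.987 to 1.13) and 1.04 (0.988 to 1.10), both with intervals that held equality. Both excluded it under 3 of 4 other scalings, with 1.11 (1.03 to 1.18) and 1.09 (1.03 to 1.15) under library totals.

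In U1 snRNP, Snrnp70, the protein that binds the first stem-loop of U1 RNA, had 6606 and 8262 counts, or 329.9 and 385 scaled CPM, and a ratio of 1.17 (1.13 to 1.21). Luc7l2, which stabilises U1 at 5′ splice sites, had 4509 and 5045 counts and a ratio of 1.04 (1.003 to 1.09). An annotated RNA gene, Gm26699, overlaps 18.9% of the exonic bases of Luc7l2 on the opposite strand.

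The group of helicases and SUGP1 held both the lowest and one of the highest ratios. Ddx46, the ATPase that remodels U2 snRNP for branch point binding, had 3288 counts with EVI1-WT and 3045 with EVI1+18, or 164 and 142 scaled CPM. It was 1.16-fold lower in EVI1+18 (1.10 to 1.22) and shared no 50-base word with another gene. Dhx15, the helicase that takes spliceosomes apart, had 4401 and 4783 counts and a ratio of 1.01 (0.974 to 1.06), or 1.06 (1.02 to 1.11) under library totals. Sugp1, a G-patch protein that binds SF3B1 and activates DHX15, had 875 and 1193 counts, or 43.7 and 55.6 scaled CPM, and a ratio of 1.27 (1.17 to 1.39), the third highest of the 33. Within each library, Sugp1 against Dhx15 was 1.26-fold (1.14 to 1.38) and Sugp1 against Ddx46 1.47-fold higher in EVI1+18 (1.33 to 1.63). Both pairs were chosen after the counts were seen. The pair with Ddx46 sets the third highest ratio of the 33 against the lowest, so its size follows from that choice.

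Per kilobase of all annotated exons, a pair of SR genes and U2af2 were the most abundant of these factors in both libraries. Srsf5 stood at 106 scaled CPM per kb in EVI1-WT and 121 in EVI1+18, followed by Srsf2 at 78.8 and 108, and U2af2 at 73.8 and 78.7. Srsf4, at 6.48 and 6.10, and Sugp1, at 7.15 and 9.10, were the lowest. The transcript Gm12992 overlaps 43.02% of the exonic bases of Srsf4 on the opposite strand, with 13 and 21 counts of its own. Per kb of the longest coding transcript, Srsf5 (269 and 307) and Srsf4 (10.2 and 9.62) kept their places, but Snrnp70 came next to Srsf5 at 190.1 and 222, then Srsf3 at 142 and 171, above Srsf2 at 123 and 169. In the SF3B complex, whose subunits are present in equal number in the assembled particle, the level per kb ran from 44.0 (Sf3b2) to 19.7 (Sf3b5) in EVI1-WT and from 46.2 to 21.2 in EVI1+18. With the longest coding transcript this range was wider, from 93.1 to 19.7 and from 97.8 to 21.2. Across the families, 17 of 25 neighbouring pairs in the EVI1-WT order were apart in that order beyond their counting intervals in both libraries, while 8 were not. Among the 8 were Srsf9 and Srsf1, level in EVI1-WT at 60.0 and 59.4 but with Srsf1 above in EVI1+18 at 53.6 and 70.8, as well as Srsf6 with Srsf3, Sf3a3 with Sf3a2 and Sf3b3 with Sf3b5. With the longest coding transcript as the length in place of all annotated exons, 19 of the 25 pairs kept their order in EVI1-WT. The 6 that did not include Sf3b1, which then stood above Sf3b4, and U2af1, above Sf1, so the order within a family depends in part on the gene model.

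**Figure D4:**
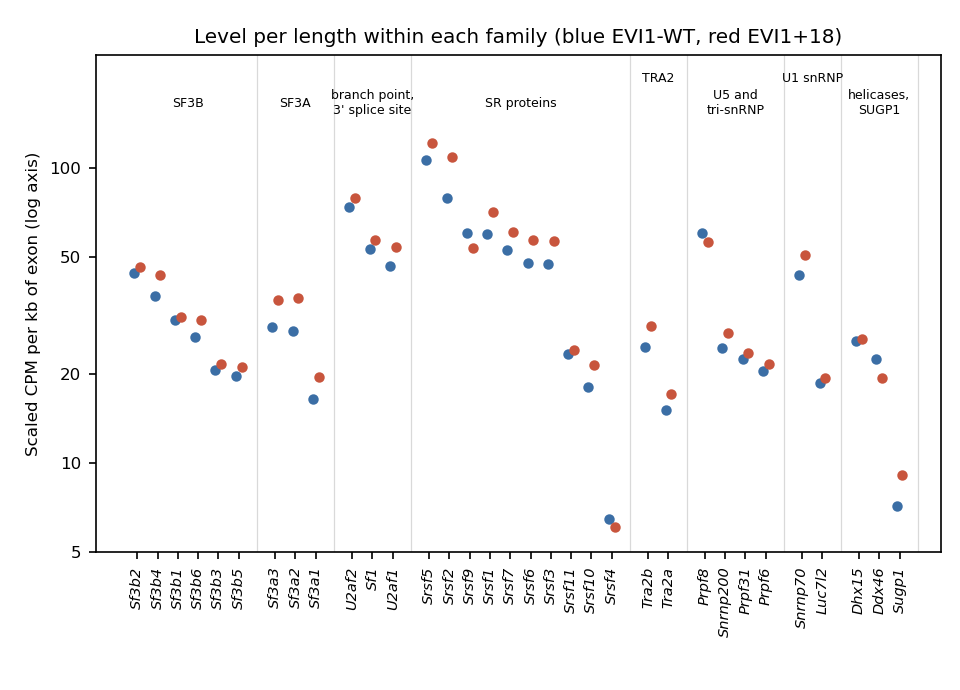
Scaled CPM per kb of annotated exon (log axis) in the EVI1-WT library (blue) and the EVI1+18 library (red) for each splicing factor, ordered within its family by the EVI1-WT value. Levels run from 6.10 (Srsf4) to 121 (Srsf5) in EVI1+18, while the ratio of the 2 libraries within a gene is 1.38 at most (Srsf2).

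Ratios in these libraries also varied with transcript length. Over genes of at least 10 scaled CPM, the median log2 ratio was 0.08 for the 1241 genes with a longest coding transcript of up to 1.5 kb, 0.05 for 2956 genes of 1.5 to 3 kb, 0 for 2401 of 3 to 4.5 kb, -0.06 for 1211 of 4.5 to 6 kb and -0.14 for 1259 longer ones. The splicing factors with the longest transcripts were Prpf8 (7.44 kb), Snrnp200 (6.75 kb) and Sf3b1 (6.20 kb), with log2 ratios of -0.10, 0.17 and 0.04. Ddx46 follows with 5.68 kb and a log2 ratio of -0.21, whereas Srsf9, also lower in EVI1+18, has a transcript of 1.16 kb. The part of length in the ratios of single genes was not tested.

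Proliferation genes were higher in EVI1+18 by similar amounts. Of 16 S phase genes, 14 were higher beyond equality and 0 lower (median log2 ratio 0.26), and of 16 genes of G2 and M phase 13 were higher and 0 lower, with a median of 0.24. By that rule 33.4% of all genes above the filter were higher and 32.8% lower, and at 10 scaled CPM 36.2% each. The interval included 1 for Gins2 and Fen1 of the S phase list and for Bub1, Cenpe and Kif20a of the other. The genes with the largest ratio by the bound nearest to 1 were the replication helicase subunit Mcm2, at 1.37 (1.31 to 1.43), and cyclin A2, Ccna2, at 1.48 (1.41 to 1.56). Their part in the splicing factor ratios was not tested either.

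The other splicing genes showed a like, slightly smaller displacement. The pathway was followed on 10 further lists, of which 154 genes passed the filter. Beyond equality 84 of these were higher and 19 lower, where 33.4% and 32.8% of all genes were, and the shares of several single lists lay near that background. The median log2 ratio was 0.11, and 0 were 2-fold apart in either direction. The proteins of the Sm and LSm rings, which encircle the snRNAs, had 12 of 14 higher, 0 lower and a median of 0.19, led by Lsm4 at 1.52 (1.42 to 1.63), with Snrpd2 the least so at 0.999 (0.943 to 1.06). The hnRNP proteins, which often oppose SR proteins, had 20 of 26 higher and 4 lower with a median of 0.17. Hnrnpll, known for alternative splicing in lymphocytes, stood at 1.61 (1.495 to 1.74) and Ptbp3 was 1.14-fold lower (1.11 to 1.18).

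Among other U4/U6 and U5 proteins 11 of 18 were higher and 0 lower, with a median of 0.13. Usp39, needed to assemble the tri-snRNP, had the highest ratio of all the further lists, 1.68 (1.57 to 1.80), and Txnl4a stood at 0.933 (0.833 to 1.05). Of 9 other U1 factors 6 were higher and 1 lower, with a median of 0.13, from Tial1 at 1.26 (1.19 to 1.34) to Prpf39, 1.12-fold lower (1.03 to 1.21). Of 26 proteins of the PRP19 complex and the catalytic steps 10 were higher and 3 lower, with a median of 0.09. By the bound nearest to equality, Bcas2 at 1.32 (1.22 to 1.42) stood highest and Dhx38, 1.22-fold lower (1.15 to 1.29), lowest.

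The remaining U2 factors had 8 of 15 higher, 2 lower and a median of 0.07. Htatsf1, an SF3B1 partner, stood at 1.27 (1.16 to 1.39), and Zrsr1, a relative of U2af1, was 1.21-fold lower (1.06 to 1.38). The other SR-like factors had 7 of 15 higher and 4 lower with a median of 0.07, between Srrm1 at 1.20 (1.15 to 1.26) and Son, a large nuclear speckle protein, 1.253-fold lower (1.21 to 1.29). Of the 8 kinases of SR proteins 2 were higher and 2 lower, with a median of 0.04. Srpk1, which sends SR proteins to the nucleus, stood at 1.15 (1.09 to 1.20) and Clk3 was 1.15-fold lower (1.06 to 1.246).

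The exon junction and nonsense-mediated decay genes, which act on transcripts with the exons shown above, had 6 of 15 higher and 2 lower with a median of 0.08. The decay kinase Smg1 was 1.35-fold lower (1.28 to 1.42) and the endonuclease Smg6 stood at 1.40 (1.27 to 1.54). Of 8 minor spliceosome genes 2 were higher and 1 lower, with a median of -0.01, from Rnpc3 at 1.32 (1.11 to 1.57) to Rbm41, 1.76-fold lower (1.45 to 2.14) at 14.1 and 8.02 scaled CPM.

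**Figure D5:**
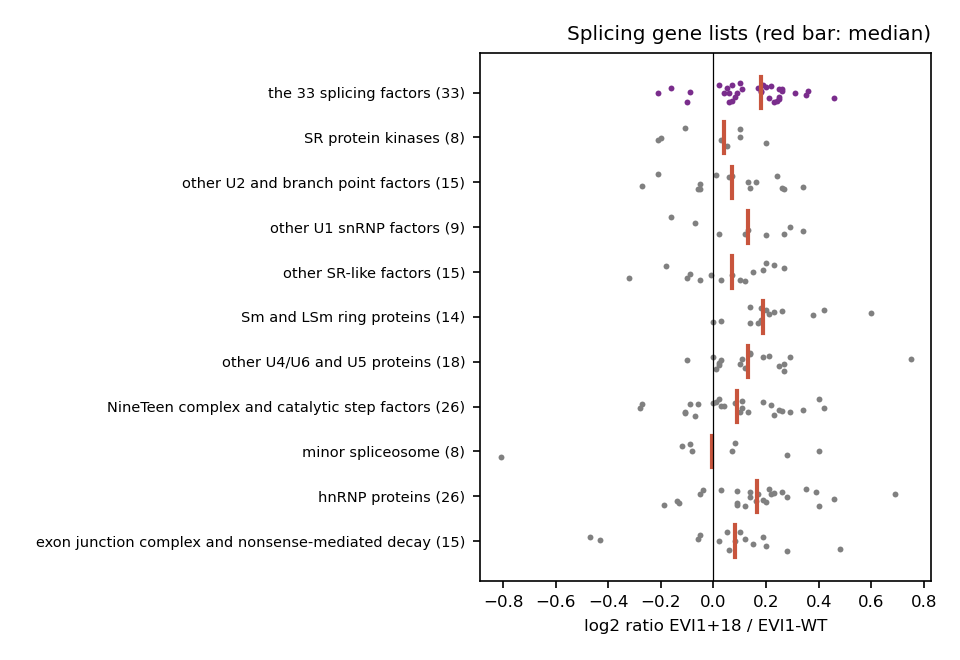
Log2 ratio of EVI1+18 over EVI1-WT for each gene above the filter on the list of 33 splicing factors (purple) and on 10 further splicing lists (grey), with the number of genes in brackets and a red bar at the median. Vertical scatter within a row carries no value. Medians lie between -0.01 for the minor spliceosome and 0.19 for the Sm and LSm rings, with 0.18 for the 33.

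Promoters of the splicing factors were compared as 300-base RefSeq windows of GRCm38.p6 around annotated starts, of which 35 matched 30 of the 33 genes. Each runs mostly upstream of the start and ends 50 bases into the transcript. They were rich in G and C, with a median of 62.7% and 25 CpG dinucleotides, against 52.7% and 7 over all 32851 windows. The ETS factor motif CCGGAAG, searched on both strands, occurred in 15 of the 35 windows, or 42.9%, and in 8.86% of all windows. In windows with at least 20 CpG dinucleotides the shares were 45.5% of 33 and 19.6% of 8701. The 12 genes with it include all 3 SF3A genes, and also Srsf4 and Srsf11, which had ratios of 0.942 and 1.03. The others are Sf3b2, Sf3b3, Sf3b6, Prpf6, Snrnp200, Srsf5 and Srsf7. The CCAAT box (CCAAT) occurred in 42.9% of the splicing factor windows and 37.4% of all, and the TATA box motif TATAAA in 8.57% and 13.6%. Among windows with at least 20 CpG dinucleotides, the shares were 39.4% and 32.9% for CCAAT. For TATAAA they were 9.09% and 3.67%, so the direction of that difference depends on the windows compared. The E-box CACGTG was found in 0 of the 35, in 7.15% of all windows and in 11.6% of the 8701 rich in CpG. GACAAGATA, bound by the first zinc finger domain of EVI1, was found in 0 of the 35, in 0.119% of all windows and in 0.023% of the 8701. The GATA factor motif AGATAA, which overlaps it where an A follows, was found in 1 (Sf3b3) and in 11.2% of all windows. Among windows with at least 20 CpG dinucleotides, AGATAA was in 3.03% of those of the splicing factors and 2.49% of all. A match is a run of letters and not a measured binding site, and 0 matches say only that these letters are not in the windows.

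The windows of the genes with the highest ratio (Srsf2), the second highest (Sf3a2) and the lowest (Ddx46) are shown for comparison, with matches on either strand to the ETS, CCAAT, E-box, GATA or TATA motif in capitals.
Srsf2, chr11:116853045-116853344, minus strand: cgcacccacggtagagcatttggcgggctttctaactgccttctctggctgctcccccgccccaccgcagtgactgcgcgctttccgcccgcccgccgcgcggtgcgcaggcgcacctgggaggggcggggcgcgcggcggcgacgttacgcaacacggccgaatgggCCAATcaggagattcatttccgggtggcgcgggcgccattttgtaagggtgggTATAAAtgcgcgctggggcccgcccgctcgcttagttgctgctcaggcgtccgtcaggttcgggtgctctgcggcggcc
Sf3a2, chr10:80798485-80798784, plus strand: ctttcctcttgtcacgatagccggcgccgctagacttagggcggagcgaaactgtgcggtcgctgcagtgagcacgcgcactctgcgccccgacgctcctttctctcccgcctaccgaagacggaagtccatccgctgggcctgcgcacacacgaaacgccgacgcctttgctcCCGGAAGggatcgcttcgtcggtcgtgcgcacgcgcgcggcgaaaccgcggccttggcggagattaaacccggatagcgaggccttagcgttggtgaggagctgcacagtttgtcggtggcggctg
Ddx46, chr13:55634749-55635048, plus strand: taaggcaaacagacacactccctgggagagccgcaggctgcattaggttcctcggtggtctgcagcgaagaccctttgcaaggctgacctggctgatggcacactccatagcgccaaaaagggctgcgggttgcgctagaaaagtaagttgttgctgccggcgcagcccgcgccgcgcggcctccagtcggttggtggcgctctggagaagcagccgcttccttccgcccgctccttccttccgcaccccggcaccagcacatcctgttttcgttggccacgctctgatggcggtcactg
The Srsf2 window holds both a CCAAT and a TATAAA, the Sf3a2 window the ETS motif, and the Ddx46 window none of the 5 motifs. The window of Sugp1, the gene with the third highest ratio, also holds none of the 5. That of Sf3b3, whose ratio was 1.05, holds the ETS, CCAAT, GATA and TATA motifs. A relation between these motifs and the ratios was not tested. Srsf3 is the other SR gene of the 10 whose window holds both CCAAT and TATAAA.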

How the data were processed

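The table the authors deposited holds counts of whole reads per Ensembl gene, 1 column per library. Their processing notes (the submitters') name GRCm38 and the tools featureCounts, Subread, SAMtools, edgeR and HISAT2 2.2.1. The strand setting, the annotation release and the handling of multiply mapping reads were not given in the sources used here. Of 55487 gene IDs, 55141 matched GENCODE M21, which gave symbols, coordinates and lengths. Columns of other samples numbered 0. Libraries were scaled with edgeR 4.0.16 (TMM, R 4.3.3; factors 0.978 and 1.023). Ratio intervals are exact (Clopper-Pearson) and level intervals exact Poisson at 95% (scipy 1.17.1). Intervals for ratios between genes of 1 library are normal on the log scale. Log2 ratios used a prior count of 2. No molecular identifiers are named, so reads may not be independent molecules, and intervals and floors cover counting error only. The interval and call rules were checked on simulated Poisson counts. Such counts hold counting error alone, so the check says nothing about variation between cultures or library preparations. The 33 genes and the lists were chosen with earlier results of these data known. All 33 are given. From each further list the genes with the largest and smallest ratio by the interval bound nearest to 1 were named, at 10 scaled CPM or more. For proliferation lists the one with the largest was named, with the genes of any level whose interval included 1. Shared sequence was measured as 50-base words among GENCODE transcripts. A planned description of protein sequences was not analysed here. Some single marker genes are not reported here.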

Additional observations from a re-analysis of the deposited data

How the results depend on the processing

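With 1 library per vector, no value here has a replicate check, and depth limits only the weakest genes (Srsf4, at 462 and 466 counts). No paired analysis was possible because each group holds 1 library. The 33 ratios were recomputed under 4 other scalings, and all 33 kept their direction in each. Of these 132 values, 109 stayed inside the TMM interval of their gene and 23 left it, 0 of them with a change of sign. Library totals raised every ratio by a factor of 1.046 and the median log2 ratio of all genes from 0.01 to 0.08. Under library totals, 2 genes were higher by more than 25% over their whole interval in place of 1, and the median log2 ratio was 0.24 for the 33 genes, 0.17 for the branch point and 3′ splice site factors, 0.29 for the SR proteins, 0.21 for the U1 proteins and 0.09 for the helicases with SUGP1. The construction of the scaling sets these shifts. The number higher beyond equality ranged from 21 (99% intervals) to 29 (library totals, and totals without the 100 most abundant genes), and the number lower from 2 to 3. Over all genes above the filter, 33.4% were higher under TMM, 39.1% under library totals and 36.7% without those 100 genes. The shares lower were 32.8%, 27.7% and 28.7%. By more than 25%, 13.4% were higher under TMM and 15.6% under library totals. DESeq2 size factors (DESeq2 1.42.0), the upper quartile, other filters, a prior count of 0.5 and means in place of medians moved no median outside its range and no count by more than 1.5 times.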

Other observations

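Further splicing regulators and RNA-binding proteins, not all of them restricted to certain tissues, differed more than the general factors in some members. A list of 24 such genes was drawn up after the values of the other lists were known, and 14 of them passed the filter. Rbm38, an RNA-binding protein known from late red-cell splicing, had 604 counts with EVI1-WT and 2135 with EVI1+18, or 30.2 and 99.5 scaled CPM, a ratio of 3.30 (3.01 to 3.62). In the same libraries the erythroid genes summed to 1455 and 13140 scaled CPM. Mbnl1, of the muscleblind family, had 6341 and 12516 counts and a ratio of 1.84 (1.79 to 1.90), while its relative Mbnl3 had 453 and 338 counts and was 1.44-fold lower (1.24 to 1.66). Rbms1 was 1.54-fold lower (1.44 to 1.66), at 89.3 and 57.9 scaled CPM. Of the 14, 2 were higher in EVI1+18 and 1 in EVI1-WT by more than 25% over the whole interval, beside 13.4% and 15.9% of all genes, and the median log2 ratio was 0.11. Rbfox1, Rbfox3, Nova2 and Rbms3 had 0 counts in both libraries.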
